A study of Mus musculus with 12 samples.

Results

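The proteasome subunit genes were followed through the hypertrophic zone of the mouse tibial growth plate in 2 models of protein misfolding. They were taken as every gene of the array whose name is Psm, a letter from a to g and a number, which gave 42 of 27962 gene names and 63 of 41174 probes. Of these genes 26 had 1 probe and 16 had several, up to 4. A gene is given below by its brightest probe (highest mean over the arrays), and the other probes are named where they differ. All 63 probes were measured on every array and none was saturated. The brightest probe was well above its local background on all 12 arrays for 38 of the 42 genes, and the other 4 were Psmb8, Psmb9, Psmd13 and Psmf1. Psme2, Psmb11 and Psmg1 to Psmg4 had no probe under these names and were not analysed here.

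The comparison was of 4 groups of 3 mice at 14 days of age. Schmid mice were homozygous for the p.Asn617Lys substitution in Col10a1, which encodes collagen X, the collagen of hypertrophic chondrocytes. Cog mice (ColXTgcog) carried the cog mutant of thyroglobulin, a protein foreign to cartilage, under the Col10a1 promoter, and hemizygous and homozygous animals were not told apart. Each mutant had wildtype littermates of its own, Wt(Sch) and Wt(Cog). The zone was cut by hand from cryosections of 1 tibia per mouse, and its RNA was amplified in a pair of linear rounds, labelled with Cy3 and hybridised to single-colour Agilent arrays. Values are log2 signals after background correction and quantile normalisation, and a difference of 1 is a 2-fold change. Because an offset of 50 was added to every corrected intensity, fold changes of dim probes are understated. A gene was called higher or lower at an adjusted p of 0.05 or less (limma, Benjamini-Hochberg over all probes).

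The proteasome is the protease that degrades proteins tagged with ubiquitin in the cytosol and nucleus, including misfolded proteins that are passed back out of the endoplasmic reticulum. Its core particle is a barrel of stacked rings, in which alpha subunits (Psma) form the gate and beta subunits (Psmb) line the chamber. Psmb5, Psmb6 and Psmb7 are the constitutive catalytic subunits, and interferon-inducible Psmb8, Psmb9 and Psmb10 replace them in the immunoproteasome, which is abundant in blood-derived cells. The regulatory particle caps the barrel with a ring of ATPases (Psmc) that unfolds the substrate and with non-ATPase subunits (most Psmd) that bind ubiquitin and remove it. Psmd5, Psmd9 and Psmd10 are chaperones that help assemble the ATPase ring, Psme1, Psme3 and Psme4 are alternative caps of the core, and Psmf1 is an inhibitor.

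The probes behind the results most relied on below are shown, each a 60-base DNA oligonucleotide of the array design. The coordinates are those of the array annotation (mm7). Each is annotated to a genomic stretch longer than its 60 bases, as a probe across an exon junction would be, which was not checked against a genome. The Psmd8 probe spans 952 bases at chr7:26115386-26116337 on the minus strand, the Psmd14 probe 2584 bases at chr2:61727999-61730582 on the plus strand, the Psmc6 probe 1827 bases at chr14:40665046-40666872 on the plus strand and the Psmb8 probe 325 bases at chr17:32280725-32281049 on the plus strand.
Psmd8: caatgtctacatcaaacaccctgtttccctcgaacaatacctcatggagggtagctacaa
Psmd14: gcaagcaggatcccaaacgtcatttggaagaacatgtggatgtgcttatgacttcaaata
Psmc6: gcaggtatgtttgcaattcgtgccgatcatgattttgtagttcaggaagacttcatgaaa
Psmb8: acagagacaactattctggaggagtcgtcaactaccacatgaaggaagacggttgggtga

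The arrays themselves differed between groups. The share of spots well above background was 58.9% to 61.8% on the Schmid arrays, 48.0% to 59.4% on Wt(Sch), 39.6% to 48.1% on Cog and 41.1% to 58.5% on Wt(Cog), and the median intensity of the negative control spots was 202 to 617 on the Schmid arrays against 977 to 1894 on the other 9. Mutant and wildtype littermates were never hybridised on a common slide, and an effect of the slide cannot be told apart from the genotype. P-values set a difference against the spread between the 3 mice within a group, pooled over the 4 groups and moderated by limma. Cartilage markers were present: the Col10a1 probe lay at 13.69 to 14.95 in Schmid, 12.99 to 15.79 in Wt(Sch), 14.71 to 15.40 in Cog and 13.75 to 14.67 in Wt(Cog). Its log2 difference was -0.02 (adjusted p = 0.99) in Schmid and 0.996 (adjusted p = 0.39) in Cog. The place of this probe relative to the substitution was not checked. No probe named Tg, for thyroglobulin, was found on the array. Of 8 general chondrocyte markers 1 was lower in Schmid (Col11a2) and none was called in Cog. Of 7 hypertrophic markers 3 were lower in Schmid (Ihh -3.55, Alpl and Runx2), with the log2 of their mean signal at 14.28 to 14.52 against 15.81 to 16.27, and 1 was lower in Cog (Ihh -1.37). Osteoblast markers gave 1 lower of 6 in each mutant, and osteoclast markers 2 lower of 7 in Schmid and 1 higher of 7 in Cog. Over all probes 13.3% were called lower in Schmid, and 1.86% lower and 2.73% higher in Cog. The part of these array and marker differences in the proteasome results was not tested.

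In Schmid hypertrophic zones, 11 of the 42 genes were higher and 3 were lower than in Wt(Sch). The 11 were spread over most parts of the particle: Psma1 and Psma5 of the alpha ring, Psmb2 and Psmb4 of the beta ring, the ATPase gene Psmc6, the non-ATPase genes Psmd1, Psmd2, Psmd8, Psmd13 and Psmd14, and the chaperone gene Psmd5. The 3 that were lower were Psmb8 and Psmb10, both inducible catalytic subunits, and Psme1, a subunit of the interferon-inducible cap. The share of genes called higher was 26.2%, against 10.6% of all probes and 13% of probes well above background on every array. For lower calls the share was 7.14%, against 13.3% of all probes and 16.9% of those well above background. The median difference was 0.32 over the 42 genes and -0.06 over all probes, and 28 of the 42 genes had a positive value against 44.8% of all probes. At a 2-fold minimum 4 genes stayed higher (Psmd8, Psmd5, Psmd1 and Psmd14), against 5.78% of all probes, and 2 stayed lower, against 4.69%. Psmd8, Psmd5, Psmb8 and Psmb10 kept their call in all 27 alternative settings tried. With the processed signals scaled to the 75th percentile 3 genes were higher, and when 1 mouse was left out the count ran from 6 (without Schmid replicate 1 or 3) to 13.

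**Figure D1:**
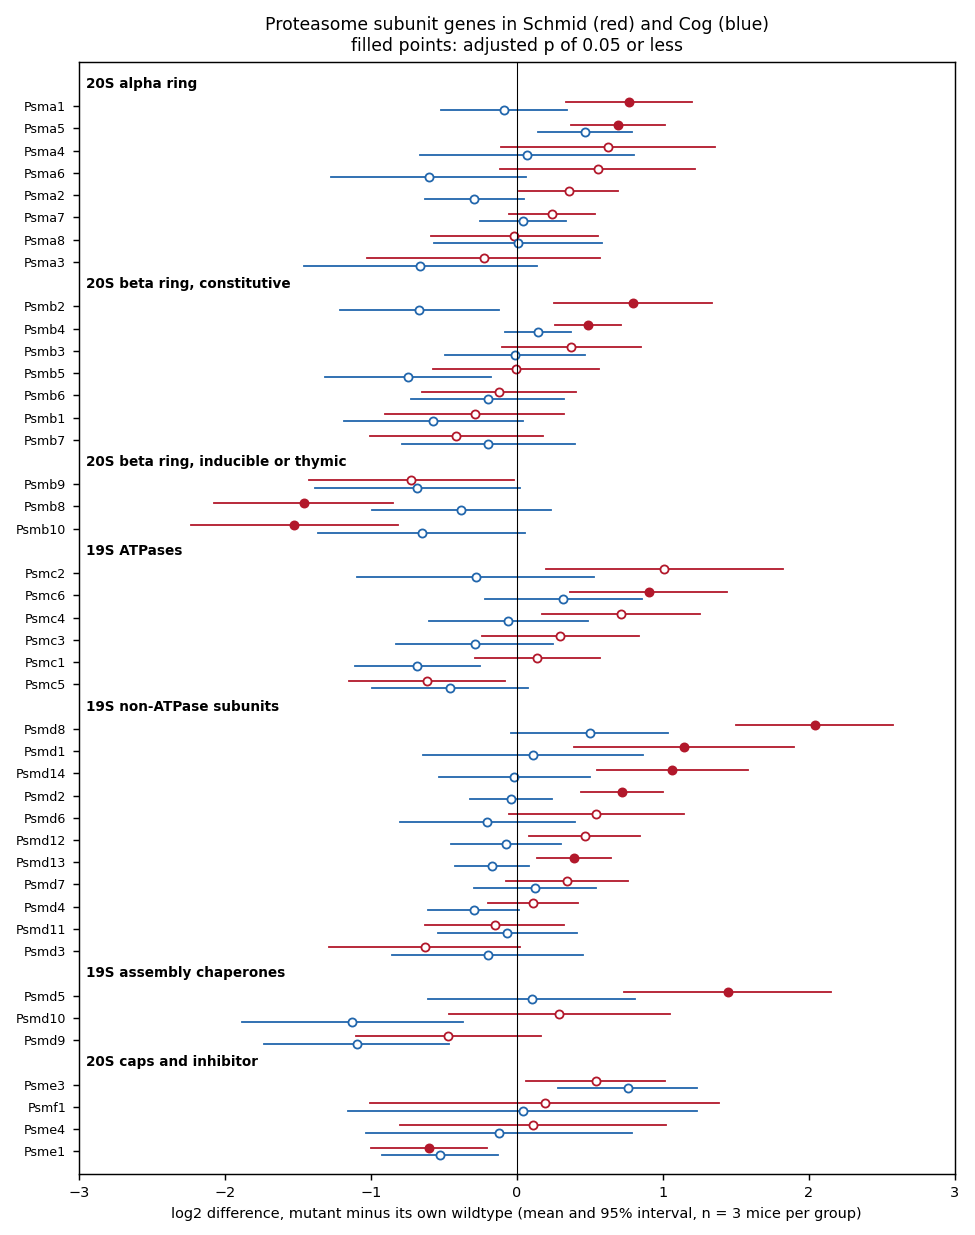
Log2 difference of each of the 42 genes from its own wildtype (horizontal axis) in Schmid and in Cog, with the 95% confidence interval of the limma fit, genes grouped by their place in the particle. The 11 genes called higher in Schmid lie in most of the groups, the inducible subunits lie to the left, and no gene is called in Cog.

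The regulatory particle held the highest values. Psmd8, a non-ATPase subunit of the lid, read 16.15, 15.64 and 15.52 in Schmid and 14.07, 13.61 and 13.52 in Wt(Sch). It was 4.12-fold higher (log2 difference 2.04 ± 0.24 SE, adjusted p = 0.00048). In Cog it read 14.77, 15.46 and 15.53, and in Wt(Cog) 14.90, 14.78 and 14.59. The Schmid arrays overlapped the Cog arrays only at their lower end and lay above all 6 wildtype arrays, although Wt(Cog) was itself 1.02 above Wt(Sch) (adjusted p = 0.082).

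Psmd14 encodes the metalloprotease that cleaves ubiquitin chains from the substrate before it enters the core. It read 15.98, 15.29 and 15.67 in Schmid, against 14.81, 14.51 and 14.42 in Wt(Sch), and rose 2.09-fold (1.07 ± 0.23 SE, adjusted p = 0.0094). Its dimmer probe differed by 0.30 (adjusted p = 0.1). In Cog it read 14.95, 15.34 and 14.98, within the range of Wt(Cog) at 15.56, 14.96 and 14.80.

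Psmd1 and Psmd2 encode the large scaffold subunits at the base of the particle, on which ubiquitin receptors dock. Psmd1 read 14.11, 13.62 and 13.65 in Schmid and 13.38, 12.44 and 12.12 in Wt(Sch), a 2.21-fold rise (1.15 ± 0.34 SE, adjusted p = 0.035). Psmd2 read 17.14, 16.67 and 16.82 against 16.08, 16.19 and 16.20, a 1.65-fold rise (0.72 ± 0.13 SE, adjusted p = 0.0034). The dimmer Psmd2 probe differed by 0.29 (adjusted p = 0.15). Both genes lay above Wt(Sch) on every Schmid array, but Psmd1 reached 13.65 and Psmd2 16.80 in Wt(Cog), so neither was clear of the other wildtype. The Psmd1 call was kept in 20 of 27 alternative settings. It was lost with each Schmid mouse left out and without Wt(Sch) replicate 2 or 3. The call was also lost with the compared groups alone and with the replicate number as a block (adjusted p = 0.059).

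Psmd13, a lid subunit, was called higher at 0.39 (adjusted p = 0.032; 0.058 with the replicate number as a block), yet none of the 12 arrays read its probe well above background and no fold is given. The sign of this difference turned under other background corrections and scalings, to between -0.44 and -0.10. Of the remaining non-ATPase genes, Psmd12 (0.46, adjusted p = 0.072), Psmd6 (0.55, adjusted p = 0.16) and Psmd7 (0.35, adjusted p = 0.2) did not pass although their Schmid arrays lay above those of Wt(Sch). Psmd4, a ubiquitin receptor, differed by 0.11, Psmd11 by -0.15 and Psmd3 by -0.63, none past the test.

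Among the 6 ATPase genes only Psmc6 passed, and its call was kept in 21 of 27 alternative settings (adjusted p up to 0.21). It was lost without Schmid replicate 1 or 3 and without Wt(Sch) replicate 2 or 3, among others. Psmc6 read 16.16, 15.72 and 15.87 in Schmid and 15.30, 14.91 and 14.83 in Wt(Sch), a 1.87-fold rise (0.90 ± 0.24 SE, adjusted p = 0.023). Its other probe gave 3.39-fold (1.76, adjusted p = 0.0093), so the direction was shared and the size was not. Psmc2 (1.01, adjusted p = 0.069) and Psmc4 (0.71, adjusted p = 0.058) had Schmid arrays wholly above Wt(Sch) without passing. Psmc1 and Psmc3 differed by 0.14 and 0.30. Psmc5 was the single ATPase gene with a negative value, at -0.62 (adjusted p = 0.086), and its dimmer probe passed at -0.61 (adjusted p = 0.0046).

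Of the assembly chaperones, Psmd5 read 14.41, 13.58 and 13.58 in Schmid and 12.79, 12.21 and 12.23 in Wt(Sch). It rose 2.72-fold (1.44 ± 0.32 SE, adjusted p = 0.010), and all 3 arrays lay above the highest of the 6 wildtype arrays. Psmd10 (0.29) and Psmd9 (-0.47) did not pass.

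**Figure D2:**
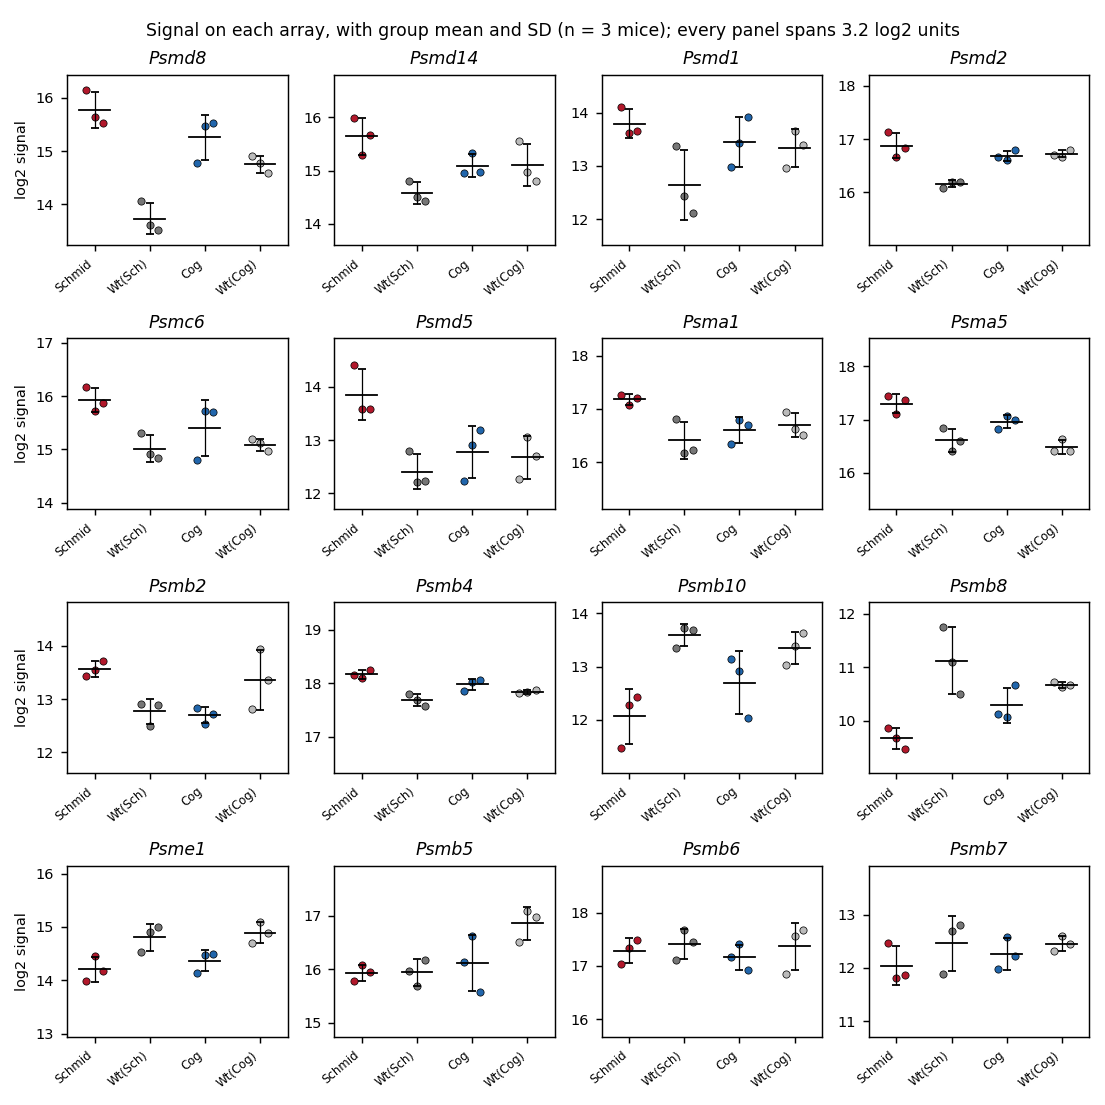
Log2 signal (vertical axis) of 16 of the 42 genes on each array, with the mean and SD of each group of 3. Psmd8, Psmd5, Psmd2, Psma5 and Psmb4 stand higher in Schmid than on every Wt(Sch) array, Psmb8 and Psmb10 stand lower, and the constitutive catalytic genes Psmb5, Psmb6 and Psmb7 overlap.

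In the core particle 2 alpha and 2 constitutive beta genes rose, each by less than 2-fold. Psma5 read 17.44, 17.10 and 17.36 in Schmid against 16.84, 16.40 and 16.59 in Wt(Sch), a 1.61-fold rise (0.69 ± 0.14 SE, adjusted p = 0.0079). Psma1 read 17.26, 17.07 and 17.20 against 16.82, 16.18 and 16.23, a 1.70-fold rise (0.77 ± 0.19 SE, adjusted p = 0.018). Both are alpha subunits of the gate, and both stood above Wt(Sch) on every Schmid array. The Psma1 call was kept in 20 of 27 alternative settings (adjusted p up to 0.38). It too was lost without Schmid replicate 1 or 3 and without Wt(Sch) replicate 2 or 3, among others. The other 6 alpha genes did not pass. Psma2 (0.35), Psma6 (0.55) and Psma7 (0.24) had non-overlapping arrays, Psma4 differed by 0.62 with overlap, and Psma3 (-0.23) and the testis-associated Psma8 (-0.02) were negative.

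Psmb4 and Psmb2 are non-catalytic beta subunits. Psmb4 read 18.16, 18.09 and 18.26 in Schmid against 17.79, 17.68 and 17.58 in Wt(Sch), a 1.40-fold rise (0.49 ± 0.10 SE, adjusted p = 0.0079). Psmb2 read 13.43, 13.55 and 13.72 against 12.91, 12.50 and 12.90, a 1.74-fold rise (0.80 ± 0.24 SE, adjusted p = 0.040). The Psmb2 call was lost in 14 of 27 alternative settings, among them each Schmid mouse left out and the replicate number as a block (adjusted p = 0.06). Psmb1 (-0.29) and Psmb3 (0.37) did not pass.

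The 3 constitutive catalytic genes showed no call. Psmb5, the chymotrypsin-like subunit, read 15.78, 16.08 and 15.95 in Schmid and 15.97, 15.68 and 16.17 in Wt(Sch), a difference of -0.01 (95% interval -0.57 to 0.56, adjusted p = 0.99). Psmb6, the caspase-like subunit, differed by -0.12 (95% interval -0.65 to 0.41, adjusted p = 0.74) and Psmb7, the trypsin-like subunit, by -0.41 (95% interval -1.01 to 0.18, adjusted p = 0.28). The interval of Psmb5 takes in the size of the Psmb4 rise (0.49), and those of Psmb6 and Psmb7 end below it.

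The inducible subunits went the other way. Psmb10 read 11.48, 12.28 and 12.44 in Schmid and 13.36, 13.73 and 13.69 in Wt(Sch), and was 2.88-fold lower (-1.52 ± 0.32 SE, adjusted p = 0.0079). Psmb8 read 9.86, 9.67 and 9.47 against 11.76, 11.11 and 10.51, and was 2.75-fold lower (-1.46 ± 0.28 SE, adjusted p = 0.0048). This probe was well above background on every array but 1 of Cog. The other Psmb8 probe fell 3.17-fold (-1.67, adjusted p = 0.011) and was well above background on 2 of 3 Schmid and 1 of 3 Cog arrays. Psmb9 read 9.93, 9.94 and 10.01 against 11.23, 10.74 and 10.08, at -0.72 without passing (adjusted p = 0.12), and was well above background on 2 of 3 Cog arrays and on all others. All 3 genes lay below Wt(Sch) on every Schmid array, and the Wt(Sch) arrays of Psmb8 and Psmb9 spread over more than 1 unit. With the processed signals scaled to the 75th percentile the Psmb8 difference was -2.83 (adjusted p = 0.0016).

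Psme1 read 13.98, 14.45 and 14.18 in Schmid and 14.52, 14.90 and 15.00 in Wt(Sch), and was 1.52-fold lower (-0.60 ± 0.18 SE, adjusted p = 0.034). This call was lost in 11 of 27 alternative settings, with adjusted p-values up to 0.24. Psme3, the nuclear cap, differed by 0.54 (adjusted p = 0.089), Psme4 by 0.11 and Psmf1 by 0.19. The Psmf1 probe was well above background on all 3 arrays of Schmid and Wt(Sch), on 1 of Cog and on 2 of Wt(Cog).

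Some markers of other cells were also lower in Schmid, where 13.3% of all probes were called lower. Of 14 white blood cell markers, 3 were lower in Schmid (Cd52 -2.72, Tyrobp -2.56 and Coro1a -0.75) and none was higher, with a median of -1.11; the log2 of their mean signal was 11.78 to 12.53 in Schmid against 12.27 to 15.19 in Wt(Sch). Of 8 endothelial markers 6 were lower, with levels of 10.00 to 10.41 against 11.82 to 12.40, and of 6 red cell markers 4 were lower, with levels of 12.03 to 13.47 against 15.36 to 17.32. In Cog the counts were 0 of 14, 2 lower of 8 and 0 of 6, against 1.86% of all probes called lower. Elane and Ngp in the first list, Pecam1 in the second and Spna1 and Rhag in the third were above background on no array or on few. In these bulk samples fewer cells of a type and less RNA per cell cannot be told apart, and the part of other cells in the fall of Psmb8, Psmb10 and Psme1 was not tested. Without Wt(Sch) replicate 1, the array with the highest white cell markers, Psmb8 was -1.14 (adjusted p = 0.0054) and Psmb10 was -1.64 (adjusted p = 0.0094). Leaving it out does not remove the marker difference. Wt(Sch) replicate 2 still had a white cell level of 14.04, and both remaining arrays stood above Schmid for red cell and endothelial markers. Of 12 interferon and antigen processing genes, which are induced together with the inducible subunits, none passed in Schmid (median -0.13) or in Cog (median -0.39).

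**Figure D3:**
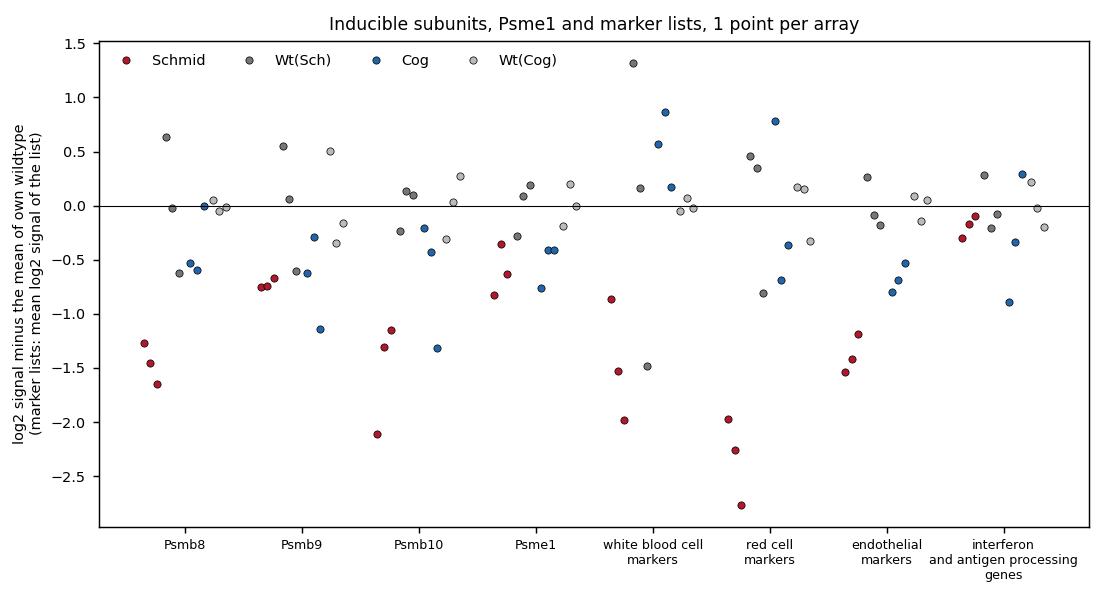
Log2 signal minus the mean of the own wildtype group (vertical axis), 1 point per array, for Psmb8, Psmb9, Psmb10 and Psme1 and for the mean of the white cell, red cell, endothelial and interferon lists. The 3 Schmid points lie below 0 for all 4 genes and all 4 lists, closest to it for the interferon list.

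Whole groups were also compared by their ranges. All 3 Schmid arrays lay above all 3 Wt(Sch) arrays for 19 of the 42 genes (45.2%, against 19.3% of all probes) and below for 5 (11.9%, against 26.1%), and the groups overlapped for 18. Read against all 6 wildtype arrays, a view chosen after the values were seen, Schmid stood above for 10 genes (12.8% of all probes did), of which 7 were among the 11 called higher, and below for 5 (19.1% of all probes did), including all 3 called lower. Of the 16 genes with several probes, 13 had probes that all pointed the same way in Schmid, and Psmd9, Psme4 and Psmf1 did not. In Cog 10 of the 16 had probes of 1 sign.

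**Figure D4:**
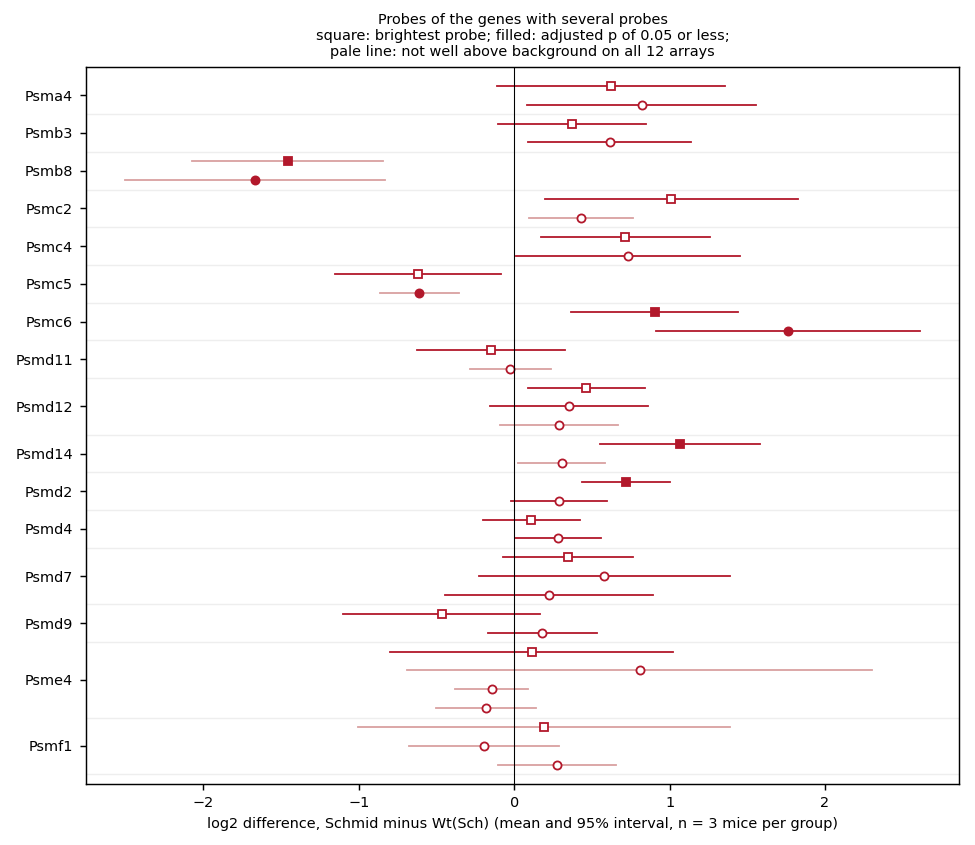
Log2 difference between Schmid and Wt(Sch) (horizontal axis) with its 95% confidence interval for every probe of the 16 genes with several probes. The probes of Psmc6 share a direction at 0.90 and 1.76, those of Psmb8 at -1.46 and -1.67, and those of Psmd9, Psme4 and Psmf1 lie on both sides of 0.

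In Cog hypertrophic zones no proteasome subunit gene was called, against 4.58% of all probes called in either direction. At an unadjusted p under 0.05, 2 genes were higher (Psma5 and Psme3) and 6 were lower (Psmc1, Psmd9, Psmd10, Psmb2, Psmb5 and Psme1) by limma, against 21.3% of all probes. The values were 12 positive and 30 negative with a median of -0.18, against a median of 0.00 over all probes. With array weights limma called 1 higher and 7 lower, and with the slide as a random block 2 higher and 5 lower. Both settings also raised the counts of genes called higher in the other comparisons (in Schmid to 14 and 15). The share of all probes called under them was not counted, so these Cog counts are not read as a fall of the set.

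The largest negative values in Cog were those of the chaperone genes Psmd10 (-1.13, adjusted p = 0.092) and Psmd9 (-1.10, adjusted p = 0.059). Psmd9 read 10.33, 11.11 and 10.77 in Cog and 11.17, 12.19 and 12.15 in Wt(Cog), and Psmd10 read 10.04, 10.87 and 9.98 against 10.89, 12.15 and 11.23. Neither gene overlapped at these probes, although the gap was under 0.1 for both. The other Psmd9 probe, well above background on every array, differed by only -0.20 in Cog (adjusted p = 0.52), with overlap. Psmc1 read 14.05, 14.27 and 14.38 against 15.00, 14.89 and 14.86 (-0.68, adjusted p = 0.077). Psmb5 read 16.14, 16.63 and 15.58 against 16.51, 17.09 and 16.99 (-0.75, adjusted p = 0.13), with overlap. Psme1 lay below its wildtype on every Cog array too (-0.53, adjusted p = 0.12).

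The largest positive value in Cog was that of Psme3, followed by Psmd8 (0.50, adjusted p = 0.27) and Psma5. Psme3 read 13.21, 12.70 and 12.78 against 12.12, 12.25 and 12.04 (0.76, adjusted p = 0.075). Psma5 read 16.82, 17.06 and 17.00 against 16.42, 16.64 and 16.41 (0.47, adjusted p = 0.097). Psme3 and Psma5 were the only 2 genes whose Cog arrays all lay above Wt(Cog) at the brightest probe, against 16.4% of all probes, and 5 genes lay below (11.9%, against 13%). A further Psmd7 probe, dimmer than the main one, differed by 1.19 (adjusted p = 0.053).

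The same 42 genes were then compared between the mutants by the difference of the 2 changes, which rests on separate wildtype arrays. At their brightest probe 5 genes differed, all more positive in Schmid: Psmd8 (1.54 ± 0.34 SE, adjusted p = 0.014), Psmb2 (1.46 ± 0.35 SE, adjusted p = 0.018), Psmd2 (0.76 ± 0.18 SE, adjusted p = 0.018), Psmd14 (1.08 ± 0.33 SE, adjusted p = 0.048) and Psmd13 (0.56, adjusted p = 0.04; not above background). That is 11.9% of the set, against 6.38% of all probes in this direction and 16.6% in either. The difference was positive for 32 of the 42 genes, with a median of 0.49 against -0.03 over all probes. For Psmb2 it was made from both sides, since the gene read 12.84, 12.54 and 12.71 in Cog and 12.81, 13.93 and 13.35 in Wt(Cog). For Psmd5 (1.34, adjusted p = 0.069), Psma1 (0.86, adjusted p = 0.059) and Psmd1 (1.04, adjusted p = 0.17) the difference did not pass. The falls of Psmb10 (-0.87, adjusted p = 0.21) and Psmb8 (-1.08, adjusted p = 0.086) were not shown to differ between the mutants.

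The 11 genes called higher in Schmid had Cog values from -0.67 to 0.50 with a median of 0.10, 6 of them positive. By sign alone, 11 of the 42 genes were positive in both mutants, 13 negative in both, 17 positive in Schmid and negative in Cog, and 1 the reverse. The set median of each Schmid array, relative to its wildtype mean, was 0.47, 0.25 and 0.37, that of the Cog arrays -0.43, 0.00 and -0.21, and the wildtype arrays lay between -0.14 and 0.09. Without Cog replicate 1 the Cog median over the set was -0.03, with 18 of 42 genes positive.

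The wildtype groups also differed for this set. Wt(Cog) was higher than Wt(Sch) for 34 of the 42 genes with a median of 0.27, against 0.00 over all probes. No gene was called by limma (0.872% of all probes were, in either direction), and at an unadjusted p under 0.05 there were 13 higher and 1 lower, against 14.1% of all probes. Among the 11 genes called higher in Schmid, 10 were higher in Wt(Cog) than in Wt(Sch), with a median of 0.28, near that of the whole set. These 11 were picked against the same Wt(Sch) arrays, so low Wt(Sch) readings favour both values and the count is no separate result. Beside Psmd8, Psmd2 (0.56, adjusted p = 0.072) and Psmd14 (0.53) were among the 10. The comparison of the mutants therefore contains this difference between their wildtypes.

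Genes that work beside the proteasome were counted from lists, to be read against 10.6% of all probes higher and 13.3% lower in Schmid. Of 4 ubiquitin and ubiquitin-activating genes, 3 were higher in Schmid and none was lower: the polyubiquitin gene Ubb (0.96, adjusted p = 0.041) and the activating enzymes Uba1 (0.96, adjusted p = 0.041) and Uba6 (0.98, adjusted p = 0.002). The ubiquitin fusion gene Rps27a (-0.22) did not pass in Schmid, and it was the single gene of this list called in Cog (0.93, adjusted p = 0.024). Its change also differed between the mutants past the threshold, more negative in Schmid (-1.15).

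Of 15 genes for the segregase Vcp, its cofactors and ubiquitin shuttle proteins, which bring substrates to the proteasome, 6 were higher in Schmid and none was lower. Zfand2a, an arsenite-inducible gene whose product binds the proteasome, was highest (1.56, adjusted p = 0.00038) and also passed in Cog (0.84, adjusted p = 0.028). Faf1 (1.30, adjusted p = 0.0043), Faf2 (0.91, adjusted p = 0.004), Ubqln1 (0.65, adjusted p = 0.0094) and Vcp (0.56, adjusted p = 0.018) passed in Schmid and not in Cog. Ubqln2 (1.08, adjusted p = 0.019) was above background on only 1 Wt(Sch) array. None of the 15 differed between the mutants at the adjusted threshold.

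Of 9 proteasome partners under other names, such as the deubiquitinases Usp14 (0.71, adjusted p = 0.11) and Uchl5 (0.45) and the assembly factor Pomp (-0.59, adjusted p = 0.11), none was higher in Schmid. The 1 called lower, Psmc3ip (-0.61, adjusted p = 0.015), acts in meiotic recombination and is named for its binding to a subunit. In Cog 1 of the 9 was called lower, against 1.86% of all probes, and none was higher.

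Of 10 genes for regulators of proteasome transcription, 1 was higher and 2 were lower in Schmid. Nfe2l1 encodes the factor that raises transcription of subunit genes when proteasome activity is short. It differed by -0.12 in Schmid (adjusted p = 0.59), whereas in Cog it read 17.27, 17.27 and 17.47 against 16.18, 16.16 and 16.38, a rise of 1.10 (adjusted p = 0.006). Its relative Nfe2l3 fell in Schmid (-1.02, adjusted p = 0.014), as did the repressor gene Bach1 (-1.30, adjusted p = 0.046), and the dimerisation partner Mafk rose (0.82, adjusted p = 0.0094). Nfe2l2 (1.20, adjusted p = 0.076) and Ngly1, the glycanase that helps activate Nfe2l1 (1.27, adjusted p = 0.084), did not pass. The changes of Nfe2l1 (-1.22, adjusted p = 0.0049) and Nfe2l3 (-1.84, adjusted p = 0.0065) differed between the mutants, both more negative in Schmid.

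Promoters of the set were searched for short motifs of factors known to act on proteasome or stress genes, in RefSeq windows of 300 bases (GRCm38.p6, 250 bases before to 50 after the start). A window was found for 35 of the 42 genes; Psma8, Psmb1, Psmb2, Psmb7, Psmc3, Psmd3 and Psmd7 had none. The antioxidant response element core, TGACNNNGC on either strand, which Nfe2l1 and Nfe2l2 bind, was present in 6 of 35 genes (17.1%), against 12.4% of all 32851 windows. Among the genes called higher in Schmid it was present in 1 of 10, Psmc6. The 6 stretches are printed with the match in capitals and the gene's strand first. In Psme4, Psmc6 and Psmd12 the match runs on the opposite strand and reads as its reverse complement. They lie at chr11:70525338-70525366 (Psmb6, plus strand), chr14:54618024-54618052 (Psmb5, minus strand), chr5:123228149-123228177 (Psmd9, plus strand), chr11:30771758-30771786 (Psme4, plus strand), chr14:45329587-45329615 (Psmc6, plus strand) and chr11:107479278-107479299 (Psmd12, plus strand).
Psmb6: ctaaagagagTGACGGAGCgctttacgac
Psmb5: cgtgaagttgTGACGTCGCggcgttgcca
Psmd9: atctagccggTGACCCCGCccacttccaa
Psme4: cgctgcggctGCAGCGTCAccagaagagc
Psmc6: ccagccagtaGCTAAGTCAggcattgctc
Psmd12: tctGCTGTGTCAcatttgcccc

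Psmb5, Psmb6, Psmd9, Psmd12 and Psme4 were called in neither mutant. The CCAAT box was present in 13 of 35 genes (37.1%), against 37.4% of windows. The composite element TGATGNAA was present in Psmd13 alone (2.86%, against 3.97%), the heat shock core GAANNTTC in Psmf1, Psmb5 and Psmb9 (8.57%, against 7.86%) and the STAT letters TTCNNNGAA in Psmd2 and Psmb8 (5.71%, against 8.30%). The 2 STAT matches, 1 in a gene that rose and 1 in a gene that fell, lie at chr16:20651646-20651674 and chr17:34198088-34198116, with the match in capitals. None of these shares is a test.
Psmd2: gcgcgtggccTTCTGGGAAaaggggcggt
Psmb8: tcctccgctgTTCCCAGAAgatgcccccc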

How the data were processed

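Hypertrophic zone RNA of 12 mice, 3 in each of 4 groups, was hybridised to 1 single-colour array per mouse. The authors read the arrays with Agilent Feature Extraction 9.5.3, and the deposited intensity files hold the mean signal and median local background of 45018 spots, of which 43379 are not controls. The authors also deposited log2 values (normexp with offset 50, quantile normalisation, spots of a probe averaged). Here the intensities were processed anew by the same steps (normexp with offset 50, control spots left out, quantile normalisation over the 12 arrays and averaging by probe; R 4.3.3, limma 3.58.1), and spots marked as outliers were left out in addition. On each array these values correlated with the deposited log2 values at 0.99987 or above.

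A group-means model was fitted to all 12 arrays (8 residual degrees of freedom), with moderated statistics and Benjamini-Hochberg adjustment over 41174 probes. Called means an adjusted p of 0.05 or less. A gene is given by its brightest probe, and the genes named with values are those called in a comparison, the catalytic subunits and their inducible counterparts, Nfe2l1, Nfe2l2 and up to 6 called genes of each other list; further genes were named after their values were seen. Groups were taken from the sample labels. The steps were tested on simulated data. The depth of an array has no count, and 3 arrays a group limit the precision. The members and lists were chosen with earlier results of these data known, and some genes of the lists are not reported here. Alternatives were another offset, Agilent's processed signals, 75th percentile scaling, the deposited log2 values, dim probes left out, array weights, an intensity trend, the compared groups alone, blocks for replicate and slide, trends over array position and GC content, all probes of a gene averaged, a 2-fold minimum and each mouse left out. No genome was used, probe coordinates are those of the file headers (mm7), and promoter sequences are from RefSeq (GRCm38.p6).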

Additional observations from a re-analysis of the deposited data

Results flagged for a closer look

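For 8 genes the change in Schmid differed from the change in Cog at a probe with an adjusted p of 0.05 or less (limma, the difference of the 2 changes, 3 arrays a group). At the brightest probe these were Psmd8 (1.54, adjusted p = 0.014), Psmb2 (1.46, adjusted p = 0.018), Psmd14 (1.08, adjusted p = 0.048), Psmd2 (0.76, adjusted p = 0.018) and Psmd13 (0.56, adjusted p = 0.04, not well above background on any array). At a dimmer probe they were Psmc2 (0.77, adjusted p = 0.034), Psmd4 (0.74, adjusted p = 0.020) and Psmc5 (-0.75, adjusted p = 0.013). Psmc5 was the single one that was more negative in Schmid. Its dimmer probe was well above background on only 2 of 3 Cog and 2 of 3 Wt(Cog) arrays. At the brightest Psmc5 probe the difference was -0.16 (adjusted p = 0.78), so the probes of this gene did not share the result. The Psmd8 difference kept its call in all alternatives but the processed signals scaled to the 75th percentile (1.67, adjusted p = 0.055), the Psmb2 difference lost it in 5 alternatives and the Psmd14 difference in 15.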

How the results depend on the processing

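Of 27 alternatives, those that moved a count of called genes by over 1.5 times are given here, and the cause was not tested. The share of all probes called was counted only in the main fit, so counts from other fits have no such share beside them. Schmid higher, 11 genes, became 3 with processed signals at the 75th percentile and 4 at a 2-fold minimum; with 1 mouse left out it ran from 6 to 13 (6 without Schmid replicate 1 or 3, 7 without Wt(Sch) replicate 2 or 3). Schmid lower, 3 genes, ran from 2 to 5 (2 without Schmid replicate 1 or 3 or Wt(Sch) replicate 2, 5 without Wt(Sch) replicate 1). Cog higher, 0, became 1 with array weights and 2 with the slide block, and 0 to 1 with a mouse left out. Cog lower, 0, became 7 with array weights, 5 with the slide block, 2 with either replicate block, and 1 with dim probes left out or either position trend removed, and 0 to 2 with a mouse left out. The mutant difference, 5 more positive in Schmid, became 1 with processed signals at the 75th percentile, 14 with array weights, 13 with the slide block and 3 at a 2-fold minimum, and ran from 3 to 8 with a mouse left out (3 without Schmid replicate 1 or 3, Wt(Sch) replicate 3, Cog replicate 1 or 3, or Wt(Cog) replicate 2; 8 without Wt(Sch) replicate 1 or Cog replicate 2). In the other direction, 0 became 1 under both 75th percentile scalings, processed signals with quantiles and the slide block, and 0 to 1 with a mouse left out. Wt(Cog) above Wt(Sch), 0, became 1 with quantile-normalised processed signals, 9 with array weights and 3 with the slide block, and 0 to 2 with a mouse left out. Scaling processed signals to the 75th percentile moved the median of all probes to -0.40 in Schmid and 0.43 in Cog, where the 42 genes stood at 0.31 and -0.31.

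The sign turned for Psmd13 alone among the called genes: in Schmid it was -0.28 and -0.10 under 75th percentile scaling of the processed and normexp signals and -0.44 with quantile-normalised processed signals, and its mutant difference was -1.01 under the first of these.

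With the replicate number as a block, 9 genes were higher and 4 lower in Schmid (Psmb2, Psmd1 and Psmd13 were lost, and Psmd12, higher, and Psmc5, lower, were gained), 0 and 2 in Cog, and 4 and 0 for the mutant difference. With a block within each background, chosen after seeing the data, the counts were 9 and 3, 0 and 2, and 4 and 0. Arrays of the same number deviated together at r = 0.19, 0.17 and 0.07 in Schmid and Wt(Sch), and -0.12, 0.07 and -0.11 in Cog and Wt(Cog), over all probes, and at 0.31, 0.28 and 0.12 in Schmid and Wt(Sch), and -0.21, 0.15 and -0.20 in Cog and Wt(Cog), over probes well above background on every array. Between the wildtype groups, Wt(Sch) and Wt(Cog), the values were 0.41, 0.05 and 0.19 over all probes. Over probes well above background on every array they were 0.50, 0.12 and 0.27. Not every pair was over 0.1 over all probes and the labels do not say that a number marks a shared litter or batch, so the fit without the block was kept.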
